A study of Mus musculus with 104 samples.

Results

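Cholesterol is built from acetyl-CoA through the mevalonate pathway, taken up from lipoproteins and redistributed inside the cell, and the set described here holds 28 named mouse genes for these steps. They were chosen by symbol and found in each of the 8 tables, out of 24940 genes listed there. By role, 8 belong to the mevalonate and isoprenoid steps (Acat2, Hmgcs1, Mvk, Pmvk, Mvd, Idi1, Fdps, Ggps1) and 12 to the steps from farnesyl diphosphate to cholesterol (Fdft1, Sqle, Lss, Cyp51, Tm7sf2, Lbr, Msmo1, Nsdhl, Hsd17b7, Ebp, Sc5d, Dhcr7). A further 4 control the pathway (Srebf2, Scap, Insig1, Insig2) and 4 move or store cholesterol (Stard4, Soat1, Npc1, Npc2).

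Srebf2 encodes SREBP2, the membrane-bound transcription factor that switches on nearly every gene of cholesterol synthesis. Scap escorts SREBP2 from the endoplasmic reticulum to the Golgi for cleavage when sterols are low, and Insig1 and Insig2 hold the pair back when cholesterol or oxysterols are high. A second sterol sensor, the nuclear receptor LXR, responds to oxysterols and to the cholesterol precursor desmosterol and switches on export genes such as Abca1. Macrophages take in much cholesterol from dying cells and lipoproteins, and Kupffer cells, which line the sinusoids of the liver as its resident macrophages, do so continually.

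The study measured poly(A) RNA by sequencing in 104 libraries that fall into 47 groups. Repopulating liver macrophages came from Clec4f-cre/Rosa26iDTR mice, in which Kupffer cells carry the diphtheria toxin receptor, at 12, 24, 48, 72, 168 and 336 h after diphtheria toxin (2 or 3 libraries each). Kupffer cells of the same strain came 72 h after PBS (3 libraries), and blood monocytes from untreated C57BL/6J mice (4 libraries), so the monocytes differ from the liver cells in strain and treatment as well as in cell type. Liver macrophages taken 24 h after toxin were also given LY411575 (3 libraries) or DLL1 and DLL4 antibodies (4 libraries), each with 2 control libraries, and the labels' descriptions mark all 11 as fasted, which no other group carries. These 11 libraries are labelled C57BL/6J although the design names the toxin receptor strain, and the libraries titled as controls carry the drug or antibody in another label, so the titles were followed. Kupffer cells came from Nr1h3 flox/flox mice with or without Clec4f-cre. Those with Cre are titled timP or timN, read here as TIM4 positive and negative, and those without Cre are titled timP only. Kupffer cells also came from Smad4 flox/flox mice with Clec4f-cre (t4p and t4n) or without it (titled t4). Liver cells sorted by STAB2 level, an endothelial scavenger receptor, came from untreated C57BL/6J mice (2 libraries at each of 3 levels).

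Bone marrow-derived macrophages (BMDMs) labelled Nr1h3 KO and Nr1h3 WT were cultured for 7 days. BMDMs from Smad4 flox/flox mice with and without Cre were cultured for 4 days with TGF-beta, DLL4, DLL4 with DAPT, or DLL4 with TGF-beta for 24 h. Their Cre is labelled Clec4f-cre, whereas the design names LysM-cre. C57BL/6J BMDMs received DLL4, DMHCA, DLL4 with TGF-beta, or all of these, and were taken at 24 h (4-day cultures) or 72 h (6-day cultures). The treated 72 h libraries carry 24 h in their treatment label, and the time in the title was followed. C57BL/6J bone marrow monocytes cultured for 2 days received DLL4, desmosterol, DLL4 with TGF-beta, or all of these for 48 h, and the file headers call these cells BMDM. Each of these culture groups has 2 libraries, and no doses are given in the labels. DLL4 is a ligand of Notch receptors, LY411575 and DAPT block the gamma-secretase that releases active Notch, Smad4 carries TGF-beta signals to the nucleus, and DMHCA is a synthetic sterol that activates LXR.

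The labels do not state whether the libraries within each group are from different animals or cultures, and p-values then measure only the spread between these libraries, which may be technical. The reads behind the tables ranged between 7830287 and 27776760 per library. Values are TPM, transcript counts scaled for gene length and library size, so levels compare between genes per length. Their sum ran from 510684 to 574479 per library and was not the same in every group. Differences are log2 differences of TPM + 1 with their standard errors (SE) from limma, which understates changes of low genes, and adjusted p-values cover all genes tested in a table. A gene is said to have changed at least 2-fold where its adjusted p was below 0.05 and its log2 difference at least 1 in size. Changes at any fold needed the adjusted p alone. Counts at an unadjusted p below 0.05, and counts of genes shared between comparisons, are given without the share of all genes. They therefore do not set these genes apart from others. All liver libraries held RNA of other liver cells: in the toxin time course and its Kupffer cells the TPM sum of 9 hepatocyte genes was 201 to 5006 and that of 8 sinusoidal endothelial genes 134 to 708, against 2.29 to 5.97 and 0.883 to 1.57 in blood monocytes. The Kupffer cell list of 7 genes summed to 16956 to 18710 in Kupffer cells and 0.899 to 1.85 in blood monocytes, where Clec4f and Marco were listed at 0. In bulk samples fewer cells of a type and less RNA per cell cannot be told apart.

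Squalene synthase, Fdft1, has to be read apart from the other 27 genes. Its exons share 774 bases, 20.9% of its exon length, with those of Ctsb on the opposite strand (chromosome 14, GENCODE M21), and the counting is not stated to use strand. Reads of the cathepsin B gene Ctsb, one of the most abundant macrophage RNAs, and of Fdft1 can therefore not be told apart there. Ctsb averaged 3790 TPM in Kupffer cells and 487 TPM in blood monocytes, and its values are given below beside each Fdft1 result. Gm43738 shares 77.4% of the Fdps exon bases on the same strand, and Acat2 has a close relative, Acat3, so both are uncertain to that degree. On the opposite strand 5830462I19Rik shares 18.6% of the Scap exon bases, Gm48342 16% of those of Hmgcs1 and Gm48574 10.7% of those of Idi1. The levels of these partners are not given here, so Scap, Hmgcs1 and Idi1 carry the same uncertainty about strand.

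Promoters are shown for 3 genes on which the results turn, because SREBP2 acts through short elements in these windows, usually next to a CCAAT box bound by NF-Y. They are the 250 bases before the start from RefSeq (GRCm38.p6), read 5′ to 3′ on the gene's strand. Capitals mark the sterol regulatory element TCACNCCAC and the CCAAT box, which reads ATTGG when it lies on the other strand. Hmgcs1 is at chr13:119690101-119690350 (plus strand), Cyp51 at chr5:4104698-4104947 (minus strand) and Msmo1 at chr8:64733579-64733828 (minus strand).
Hmgcs1: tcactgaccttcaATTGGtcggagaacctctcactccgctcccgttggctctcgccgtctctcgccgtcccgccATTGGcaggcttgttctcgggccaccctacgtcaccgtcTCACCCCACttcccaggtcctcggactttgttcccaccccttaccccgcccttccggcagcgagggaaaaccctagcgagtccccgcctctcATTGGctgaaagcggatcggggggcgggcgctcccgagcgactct
Cyp51: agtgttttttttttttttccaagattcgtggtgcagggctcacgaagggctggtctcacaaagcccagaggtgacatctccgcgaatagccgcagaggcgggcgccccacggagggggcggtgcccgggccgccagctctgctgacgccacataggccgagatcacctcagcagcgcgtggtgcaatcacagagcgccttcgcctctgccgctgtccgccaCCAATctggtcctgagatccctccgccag
Msmo1: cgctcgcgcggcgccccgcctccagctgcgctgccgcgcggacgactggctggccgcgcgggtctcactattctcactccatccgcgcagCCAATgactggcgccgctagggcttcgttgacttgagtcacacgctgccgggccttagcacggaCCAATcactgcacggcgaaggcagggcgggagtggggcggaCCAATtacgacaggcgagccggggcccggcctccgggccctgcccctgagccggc
The Hmgcs1 window held 1 match to the sterol regulatory element, whose first base lies 137 bases before the start, and 3 CCAAT boxes. The Cyp51 window held 1 CCAAT box and the Msmo1 window 3, and neither held an exact match to TCACNCCAC. Only this string was searched, so sterol regulatory elements spelled otherwise would be left unmarked, and their absence is not shown. A promoter was found for 23 of the 28 genes. Some genes have more than 1, so there were 29 promoters of the set. TCACNCCAC on either strand was in 1 of the 29, that of Hmgcs1, against 1.24% of all 32851 promoters. CCAAT on either strand was in 21 of the 29, against 37.4% of all promoters, and GGGCGG, the GC box, in 24 of the 29, against 35.7%. These shares describe letters in a 300-base window and show no binding.

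Across the 47 groups the most abundant of the 28 genes was Npc2, the soluble lysosomal protein that hands cholesterol to Npc1, in every group but the STAB2-sorted cells, where Lbr led. Npc2 means lay between 54.8 and 495 TPM. Idi1, isopentenyl-diphosphate isomerase, stayed between 0.0485 and 2.55 TPM and entered no test, since it stayed under the minimum of 4 TPM in 2 libraries. Several synthesis enzymes ranged widely: Sqle, squalene epoxidase and a rate-limiting step, had group means between 1.35 and 80.1 TPM, Cyp51, lanosterol demethylase, between 0.872 and 39.6 TPM, and Fdps, farnesyl diphosphate synthase, between 2.43 and 59.4 TPM. Scap stayed between 15.1 and 49.4 TPM, Insig2 between 11.5 and 34.7 TPM and Ebp, the sterol isomerase, between 23.1 and 56.3 TPM. The median of the 28 group means was 10.4 TPM in the Kupffer cells given PBS, 14.7 TPM in blood monocytes and 33.2 TPM in untreated marrow monocyte cultures, levels that come from tables made separately.

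Kupffer cells had at least 2-fold less RNA than blood monocytes for 8 of the synthesis enzymes, Sqle, Msmo1 and Cyp51 furthest. Of 25 genes tested, 10 were at least 2-fold lower (16.0% of all 11373 genes tested were) and 3 were at least 2-fold higher (19.2% of all genes). At any fold 16 were lower and 7 higher (38.5% and 34.0% of all genes). The lower genes ran from Hmgcs1, the synthase at the entry of the pathway, to Sc5d near its end, and included Srebf2 itself and Stard4, a carrier of cholesterol between membranes. The median log2 difference was -0.50 over the members and -0.06 over all genes. Of the mevalonate steps 3 of 7 tested fell at least 2-fold and none rose as far, and 5 fell and 2 rose at any fold. Of the later steps 5 of 10 tested fell at least 2-fold and only Fdft1 rose as far, and 7 fell and 2 rose at any fold.

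Sqle stood at 1.56, 1.71 and 0.981 TPM in Kupffer cells, against 9.37, 13.4, 11.7 and 10.9 TPM in blood monocytes. The groups lay far apart, and Sqle gave the largest fall of the set (log2 difference -2.35, SE 0.17, adjusted p = 9.2e-10). Msmo1, the sterol methyl oxidase that works after Cyp51, had 7.21, 9.02 and 7.63 TPM in Kupffer cells and 37.4, 42.9, 45.1 and 37.6 TPM in blood monocytes. Every Kupffer library was below every monocyte library (-2.22, SE 0.16). Cyp51 had 3.19, 3.50 and 2.55 TPM in Kupffer cells and 13.8, 15.9, 19.8 and 17.3 TPM in blood monocytes, again without overlap (-2.11, SE 0.21). Hmgcs1 had 9.58, 7.16 and 7.96 TPM in Kupffer cells and 23.4, 30.0, 30.4 and 29.5 TPM in blood monocytes (-1.67, SE 0.14). Fdps had 5.58, 2.67 and 4.25 TPM in Kupffer cells and 13.9, 16.1, 14.2 and 12.8 TPM in blood monocytes (-1.60, SE 0.18). The remaining enzymes that fell at least 2-fold were Sc5d (-1.18) and Ggps1, which makes the geranylgeranyl lipid for protein anchoring (-1.0001, just past 2-fold).

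The control genes did not move as one. Srebf2 had 30.0, 19.8 and 21.0 TPM in Kupffer cells and 71.2, 69.8, 72.2 and 65.8 TPM in blood monocytes (log2 difference -1.55, SE 0.14, adjusted p = 1.6e-08). Scap, its escort, ran the other way with 41.4, 34.8 and 32.4 TPM in Kupffer cells and 16.7, 14.7, 15.1 and 14.0 TPM in blood monocytes (1.20, SE 0.10, adjusted p = 6.1e-09). Neither gene's groups overlapped. Insig2 had 47.4, 38.3 and 18.5 TPM in Kupffer cells and 14.2, 9.99, 12.3 and 12.6 TPM in blood monocytes (1.34, SE 0.24, adjusted p = 8.6e-05). The groups did not overlap, but the 3 Kupffer libraries spread widely, and their hepatocyte gene sums were 5006, 4050 and 382 TPM. Its part in the Insig2 difference was not tested. Insig1 was lower in Kupffer cells by less than 2-fold (-0.45, SE 0.16, adjusted p = 0.016).

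Of the carriers, Stard4 had 3.03, 2.67 and 3.22 TPM in Kupffer cells, against 14.1, 12.4, 13.8 and 12.7 TPM in blood monocytes (log2 difference -1.85, SE 0.19). Soat1, which esterifies cholesterol for storage, was lower by -0.50 and Npc1, the lysosomal export channel, higher by 0.47, both past the test and under 2-fold. Lbr, the lamin B receptor with sterol reductase activity in the nuclear envelope, had 38.6, 44.8 and 49.1 TPM in Kupffer cells and 117, 122, 122 and 137 TPM in blood monocytes (-1.48, SE 0.14). Fdft1 had 64.5, 63.9 and 66.7 TPM in Kupffer cells and 19.2, 17.9, 19.3 and 20.7 TPM in blood monocytes (1.71, SE 0.16), while its antisense neighbour Ctsb differed by 2.96 (SE 0.14). How much of the Fdft1 difference is Ctsb reads cannot be told apart.

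Of 9 LXR targets measured, 6 were at least 2-fold higher in Kupffer cells (19.2% of all genes were) and only Arl4c was lower. Abca1, the cholesterol exporter, averaged 156 TPM in Kupffer cells and 4.22 TPM in blood monocytes (4.97, SE 0.21), Mertk, a receptor for dying cells, 444 TPM in Kupffer cells and 0.369 TPM in monocytes (8.35, SE 0.15), and Nr1h3, which encodes LXR alpha, 391 TPM in Kupffer cells and 3.82 TPM in monocytes (6.39, SE 0.19). Of 9 other genes of the SREBP2 machinery, only Erlin1, which binds the Insig proteins, fell at least 2-fold (-1.37, SE 0.10) and none rose. Of 13 SREBP-driven genes outside the set, 3 rose, all of fatty acid desaturation (Scd1 5.62, Fads1 4.43, Fads2 2.84), and Elovl6 fell (-2.04). Of 12 uptake and transport genes tested, Gramd1c, Lipa and Nceh1 rose and none fell. Lipa, the lysosomal lipase that frees cholesterol from its esters, averaged 463 TPM in Kupffer cells and 126 TPM in blood monocytes. Of 11 isoprenoid genes, Fntb alone rose (1.20).

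**Figure D1:**
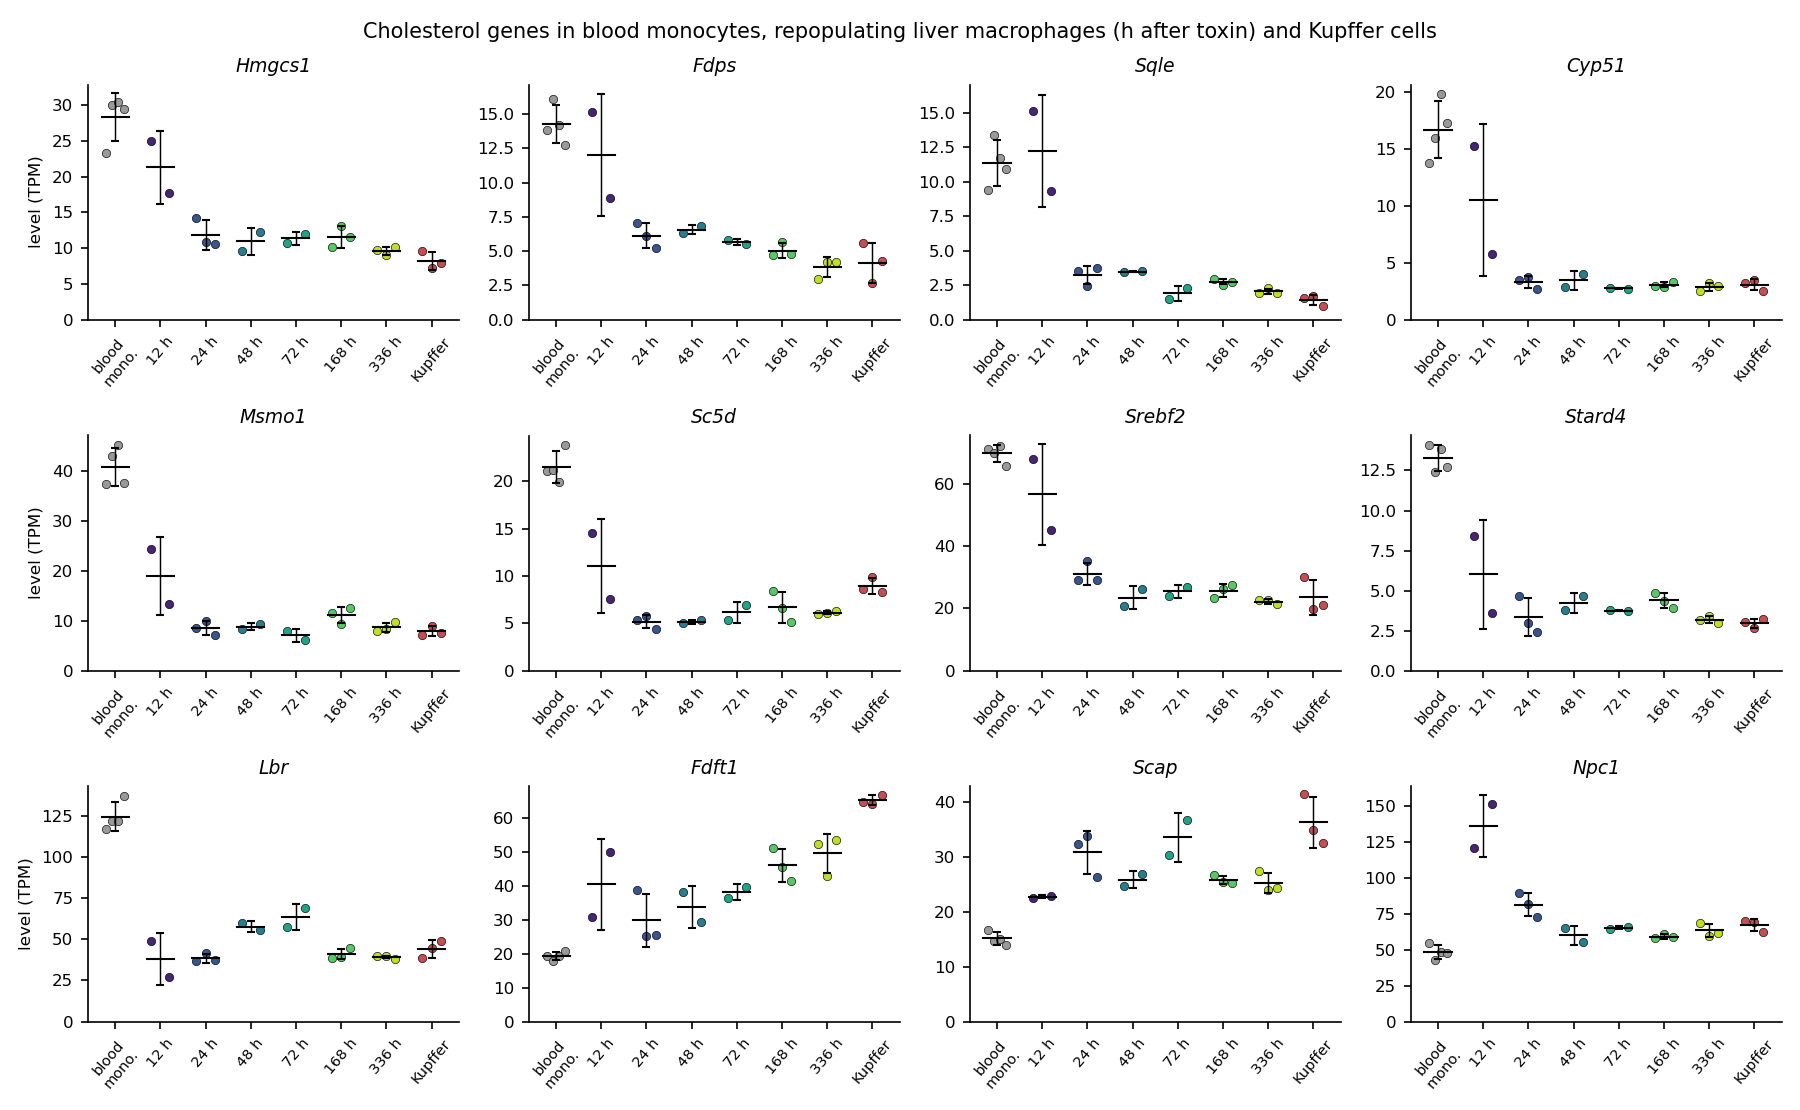
Level (TPM, vertical axis) of 12 genes of the set in each library of blood monocytes, liver macrophages at 12 to 336 h after diphtheria toxin, and Kupffer cells (horizontal axis). Points are libraries, bars group means and whiskers 1 SD. Sqle, Cyp51, Msmo1 and Stard4 are low from 24 h on, Npc1 is highest at 12 h at 121 and 151.4 TPM, and Fdft1, which shares exon bases with Ctsb, is high in Kupffer cells.

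Over the 14 days after toxin the fall of the synthesis genes was in place by 24 h. All times were set against the same blood monocytes. At 12 h, 1 gene was at least 2-fold higher and 4 were lower (12.5% and 12.7% of all genes). At 24 h none was higher and 12 were lower (17.7% and 15.8%), and at 48 h the counts were 2 higher and 12 lower (20.6% and 16.8%). The 72 h cells had 3 genes higher with 11 lower (21.4% and 15.7%), the 168 h cells 1 with 11 (16.2% and 12.8%), and the 336 h cells 1 with 10 (16.0% and 14.8%). At 24 h the median log2 difference was -0.998 over the members and 0.03 over all genes, and at any fold 5 genes were higher and 14 lower (37.6% and 35.5% of all genes), or 8 and 14 with quantile normalization. That normalization moved the median of all genes at 48 h by -0.11.

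At 12 h the 4 genes that fell at least 2-fold were Lbr (log2 difference -1.74), Msmo1 (-1.12), Stard4 (-1.11) and Tm7sf2, a sterol reductase (-1.01). Npc1 alone rose, with 121 and 151.4 TPM at 12 h against 54.5, 42.7, 48.3 and 48.1 TPM in blood monocytes (1.47, SE 0.11, adjusted p = 7.7e-09). Both 12 h libraries were above every library of the other times and of the monocytes. The 12 h pair disagreed for the synthesis enzymes. Sqle had 15.1 and 9.34 TPM and Cyp51 15.2 and 5.79 TPM, the first library within or near the monocytes and the second below it. The first library also had the higher monocyte gene sum, 3504 against 1253 TPM, and the higher hepatocyte sum, 1313 against 346 TPM, and the part of these in the difference was not tested. Without the first 12 h library 11 genes differed at least 2-fold from monocytes, and without the second 2 did.

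By 24 h Msmo1 was at 8.59, 9.90 and 7.08 TPM (log2 difference from monocytes -2.14, SE 0.16) and Cyp51 at 3.52, 3.75 and 2.71 TPM (-2.03, SE 0.21). Sc5d, the lathosterol oxidase, was at 5.36, 5.78 and 4.41 TPM at 24 h, against 21.1, 21.2, 19.9 and 23.9 TPM in blood monocytes (-1.87, SE 0.17). These levels lie below every monocyte library and inside or near the range of the later times. Insig1 was at 9.98, 10.3 and 7.17 TPM at 24 h, against 23.2, 34.5, 26.1 and 33.1 TPM in blood monocytes (-1.57, SE 0.16). It is itself a target of SREBP2 that feeds back on it, and at 168 h its 3 libraries stood at 27.8, 27.6 and 23.6 TPM, within the range of monocytes. Soat1 was at 97.7, 92.4 and 96.5 TPM at 24 h, against 228, 205, 219.7 and 185 TPM in blood monocytes (-1.12, SE 0.09), and at 141, 119.9 and 125 TPM at 336 h. Mvk and Pmvk, the kinases of mevalonate and its phosphate, rose instead: at 48 h Mvk had 8.79 and 8.60 TPM, against 3.31, 3.67, 1.61 and 3.25 TPM in blood monocytes (1.33, SE 0.20), and Pmvk had 14.1 and 13.0 TPM, against 5.05, 6.67, 4.57 and 6.39 TPM in monocytes (1.13, SE 0.17). The cell cycle gene sum was also highest then, 543 to 579 TPM at 48 h and 404 to 468 TPM at 72 h, against 45.6 to 51.5 TPM in monocytes, and its part was not tested. Fdft1 rose at least 2-fold at 168 h (1.21) and 336 h (1.31), where Ctsb differed by 2.48 and 2.50.

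Between 24 and 12 h directly, Sqle fell to 3.53, 2.45 and 3.71 TPM at 24 h, against 15.1 and 9.34 TPM at 12 h (log2 difference -1.62, SE 0.21, adjusted p = 2.6e-05). Cyp51 (-1.29) and Msmo1 (-1.02) were the other genes at least 2-fold lower, 3 of 25 where 2.74% of all genes were, and none was higher (3.42% of all genes). Without the first 12 h library 1 gene was left, and without the second there were 9. At 336 h no gene of the set differed at least 2-fold from Kupffer cells, where 0.932% of all genes were higher and 2.89% lower, and 7 of 25 had an unadjusted p below 0.05. At any fold none was higher (8.56% of all genes) and 4 were lower at 336 h (12.7%): Mvd, the mevalonate diphosphate decarboxylase (-0.71, SE 0.11), Insig2 (-0.82), Scap (-0.50) and Dhcr7, the last reductase of the pathway (-0.41). Mvd had 12.9, 15.0 and 13.2 TPM at 336 h and 20.5, 25.5 and 23.3 TPM in Kupffer cells, without overlap. Without the third Kupffer library, the one low in hepatocyte genes, 1 gene differed at least 2-fold, Insig2 (-1.21). Without the second library of either group 2 genes passed at any fold.

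Many genes of the set were also lower in Kupffer cells than in BMDMs. These are other Kupffer cells than those set against blood monocytes, and the sizes of these differences were not compared by a test. In Kupffer cells of Nr1h3 flox/flox control mice 13 of 27 genes tested were at least 2-fold lower than in wild-type BMDMs (15.9% of 10558 genes) and 1 was higher (20.6%). The median log2 difference was -0.66 over the members and 0.05 over all genes. Sqle had 1.68 and 1.02 TPM in Kupffer cells and 70.4 and 68.1 TPM in BMDMs (-4.92, SE 0.12, adjusted p = 3.3e-09), the largest difference in this set in any comparison made. Fdps had 3.70 and 2.72 TPM in Kupffer cells and 35.9 and 32.6 TPM in BMDMs (-3.07, SE 0.12). Msmo1 had 9.64 and 9.30 TPM in Kupffer cells and 63.8 and 66.5 TPM in BMDMs (-2.66, SE 0.07). Cyp51 (-2.16), Srebf2 (-1.82), Hmgcs1 (-1.64), Npc1 (-1.51), Stard4 (-1.47), Mvk (-1.28) and Sc5d (-1.09) fell too. So did the low genes Hsd17b7 (-2.60), Lss (-1.73) and Acat2 (-1.72), which stayed below 10 TPM in both groups. Sqle, Fdps, Cyp51, Stard4, Hsd17b7, Lss and Acat2 were below the minimum of 4 TPM in both Kupffer libraries. They entered the test through the BMDMs, so only a fall could be found for them. Srebf2 had 22.5 and 17.9 TPM in Kupffer cells and 73.9 and 72.6 TPM in BMDMs. Lbr was the only gene to rise, with 46.0 and 44.5 TPM in Kupffer cells and 8.80 and 8.16 TPM in BMDMs (2.29, SE 0.07), whereas it was lower in Kupffer cells than in blood monocytes. Of 9 LXR targets 6 were again at least 2-fold higher in Kupffer cells, with Abca1 at 129 against 13.9 TPM (3.07, SE 0.19). Hepatocyte genes summed to 213 and 756 TPM in Kupffer cells and 6.07 and 7.09 TPM in BMDMs, and cell cycle genes to 71.0 and 78.4 TPM in Kupffer cells and 348 to 372 TPM in BMDMs, and their part in these differences was not tested.

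In Nr1h3 flox/flox mice with Clec4f-cre the gene for LXR alpha is targeted in Kupffer cells, but its RNA was not lower there. Nr1h3 stood at 391 and 422 TPM in the timP and 341 and 395 TPM in the timN libraries labelled knockout, against 409 and 393 TPM in control Kupffer cells. Exon sums cannot show the loss of part of a transcript, so directions below hold for cells labelled Nr1h3 knockout. In BMDMs labelled Nr1h3 KO it was 8.05 and 8.81 TPM, against 41.9 and 43.3 TPM in Nr1h3 WT. No gene of the set differed at least 2-fold in either Kupffer subset (shares of all genes higher and lower 1.57% and 1.29% in timP, 2.2% and 1.96% in timN), while 10 and 9 of 27 had an unadjusted p below 0.05.

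At any fold Soat1 changed most. It had 90.5 and 94.3 TPM in timP and 86.9 and 86.8 TPM in timN Kupffer cells labelled knockout, against 135 and 148 TPM in control cells (log2 differences -0.60, SE 0.06, and -0.69, SE 0.06, adjusted p = 0.00029 and 9.6e-05). Both labelled groups lay below both controls, which the comparisons share. Both controls are timP, so in timN cells the knockout label and TIM4 status cannot be told apart. In timP cells Srebf2 (-0.40) and Sc5d (-0.34) were also lower and Hmgcs1 (0.29) and Mvk (0.31) higher, 3 and 2 genes where 6.28% of all genes were lower and 17.2% higher. In timN cells 5 were lower (Soat1, Sc5d, Fdft1, Srebf2, Cyp51) and 3 higher (Ebp, Hmgcs1, Dhcr7), where 7.55% of all genes were lower and 24.0% higher. With quantile normalization the split became 0 higher and 6 lower in timP and 0 higher and 7 lower in timN cells, so the small rises depend on the scaling. Without either timP library labelled knockout 3 genes passed, and without 1 of the timN pair or the first control library 3 to 5 did. The Kupffer cell gene sum was 12552 to 13769 TPM in timP and 9378 to 9606 TPM in timN cells labelled knockout, against 21071 to 21272 TPM in control cells, and its part was not tested.

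Between timN and timP cells labelled knockout no gene passed the test (0.493% of all genes were higher and 1.13% lower at any fold, and 2 of 27 members had an unadjusted p below 0.05). In BMDMs the knockout, which did lower Nr1h3, left 1 of 27 genes past the test at any fold (1.77% of all genes were lower and 0.322% higher): Lbr had 5.28 and 5.70 TPM in Nr1h3 KO and 8.80 and 8.16 TPM in Nr1h3 WT BMDMs (-0.55, SE 0.07, adjusted p = 0.0096). None changed at least 2-fold there (0.0284% of all genes were higher and 0.388% lower). Without any 1 of these 4 libraries no gene passed. The labelled effect differed between timP Kupffer cells and BMDMs for 4 genes, 3 downward and 1 upward (2.98% and 10.4% of all genes): Soat1 (difference of log2 differences -0.66, SE 0.09), Sc5d (-0.59, SE 0.09), Cyp51 (-0.47, SE 0.11) and Lbr (0.53, SE 0.10). Without the first library of either BMDM group 2 were left, and with quantile normalization, which moved the median of all genes by -0.14, 7 passed downward and 0 upward.

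Smad4 RNA was lower where it was deleted, at 13.7 to 21.5 TPM in t4p and 15.1 and 19.6 TPM in t4n Kupffer cells, against 35.7 and 33.4 TPM in control cells. No gene of the set passed limma's test in t4p cells (0.794% of all genes higher and 0.523% lower at any fold), in t4n cells (1.07% and 1.18%) or between them (0% and 0.0503%). At an unadjusted p below 0.05 there were 4, 4 and 1 of 21 tested. In their titles 1 t4p and 1 t4n library carry the same title code, whose meaning is not stated. Differences spanned -0.50 to 0.60 in t4p and -0.57 to 0.44 in t4n cells against control.

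The STAB2-sorted liver cells held more Lbr than any other member and little squalene epoxidase, and none of the 28 genes differed at least 2-fold between levels (8.09% of all genes were higher and 5.54% lower in STAB2-low than in STAB2-high cells). At any fold 5 of 23 genes tested differed between STAB2-low and STAB2-high cells, where 17.6% of all genes were higher and 12.1% lower. Scap had 33.2 and 29.6 TPM in STAB2-low and 18.3 and 15.1 TPM in STAB2-high cells (0.87, SE 0.18, adjusted p = 0.012). Stard4 had 33.8 and 31.2 TPM in STAB2-low and 48.8 and 45.2 TPM in STAB2-high cells (-0.52, SE 0.11), and the group means of 32.5 to 47.0 TPM at the 3 levels were above those of every other group. Acat2 was higher (0.82) and Msmo1 (-0.63) and Soat1 (-0.54) were lower. Acat2 reached the minimum of 4 TPM in the STAB2-low libraries only, so only a rise could be found for it. The STAB2-low libraries carry another library code in the file header than the rest, so this and the STAB2 level cannot be told apart. Without any 1 of the 4 libraries 1 to 3 genes passed, and with quantile normalization, which moved the median of all genes by -0.11, the split of 2 higher and 3 lower became 1 and 4. The titles give the same pair of codes to the libraries at each level, without saying what they stand for, and with the code as a block Acat2 did not pass (adjusted p = 0.059) while the other 4 genes did. No gene passed between STAB2-intermediate and STAB2-high cells, where 0.00946% of all genes did and 1 of 23 had an unadjusted p below 0.05.

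Npc1, Soat1 and Npc2, which export cholesterol from lysosomes and store it, were higher in liver macrophages when gamma-secretase was blocked. In macrophages taken 24 h after toxin from mice given LY411575, 6 of 22 genes tested were higher at any fold than in control mice (14.5% of 9885 genes) and Scap was lower (14.3%), with none at least 2-fold changed (3.73% higher, 2.65% lower). Without the third LY411575 library 11 passed. Npc1 had 192, 192 and 173 TPM with LY411575 and 92.1 and 99.4 TPM without (log2 difference 0.95, SE 0.11, adjusted p = 7.7e-05). Soat1 had 208, 208 and 198 TPM with LY411575 and 105 and 118 TPM without (0.87, SE 0.08). Both groups were separate for each gene. Fdft1 rose by 0.96 (SE 0.08), with Ctsb differing by 0.04 here, and Sqle (0.76), Msmo1 (0.63) and Npc2 (0.25) rose too. Scap had 18.4, 21.1 and 16.7 TPM with LY411575 and 30.6 and 31.6 TPM without (-0.71, SE 0.12).

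With DLL1 and DLL4 antibodies 3 genes were higher and 3 lower at any fold (6.66% and 6.13% of all genes) and none changed at least 2-fold (0.678% and 1.4%). Npc1 had 121, 121, 122 and 109 TPM with the antibodies and 96.2 and 71.2 TPM without (0.51, SE 0.10). Soat1 had 136, 139, 141 and 145 TPM with the antibodies and 115 and 93.6 TPM without (0.43, SE 0.08). Fdft1 rose by 0.29 where Ctsb rose by 0.53, and Mvd (-0.54), Insig2 (-0.59) and Tm7sf2 (-0.74) fell. Without either control library 2 genes passed, and without the second or the third treated library 3 did. The LY411575 effect minus the antibody effect was positive and past the test for 4 genes (7.25% of all genes, and 6.24% were negative). It was 0.44 for Soat1 (SE 0.12), 0.67 for Fdft1 (SE 0.11), 0.89 for Sqle (SE 0.26) and 1.07 for Sc5d (SE 0.30). With the antibodies Sqle (-0.13) and Sc5d (-0.51) went the other way without passing the test. Sc5d with LY411575 (0.56) did not pass either. LY411575 libraries are from female and antibody libraries from male mice, so sex and agent cannot be told apart in the difference between the effects. Without any 1 of 7 of the libraries, among them the first of each group, only 1 of the 4 passed.

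Markers of other cells moved in these libraries. The Kupffer cell list summed to 39.0 to 41.8 TPM with LY411575 and 567.7 to 581 TPM without, and the monocyte list to 3198 to 3433 TPM with LY411575 and 1383 to 1397 TPM without. The hepatocyte list summed to 903 to 925 TPM with LY411575 and 427 to 441 TPM without, and to 412 to 1608 TPM with the antibodies and 1675 to 3789 TPM without. The part of these shifts in the results was not tested. Of the LXR targets none of 9 changed at least 2-fold with LY411575, and Nceh1, a cholesterol ester hydrolase, averaged 204 TPM with LY411575 and 56.4 TPM without (1.84, SE 0.09).

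In BMDMs of Smad4 flox/flox mice and their deleted counterparts the set moved little. Smad4 was at 8.52 to 11.3 TPM in the deleted and 20.4 to 26.5 TPM in the control cultures. The 1 change of at least 2-fold was in Lbr with TGF-beta added to DLL4, at 20.3 and 19.5 TPM against 43.7 and 40.9 TPM with DLL4 alone in control cells (log2 difference -1.05, SE 0.08, adjusted p = 9.3e-08, where 4.04% of all genes were lower and 2.62% higher), and with quantile normalization it fell short of 2-fold. In Smad4-deleted cells Lbr was at 25.7 and 23.9 TPM with both agents, against 29.7 and 31.6 TPM with DLL4 alone (-0.29, SE 0.08), the only one of 27 genes past the test there (5.22% lower and 3.87% higher at any fold), and without any 1 of these 4 libraries none passed. TGF-beta alone lowered 7 and raised 2 genes at any fold in control cells (20.6% and 15.4% of all genes) and passed the test for none in deleted cells (1.95% and 3.67%), with 4 of 27 at an unadjusted p below 0.05. Without the first untreated library 4 genes passed in control cells, and with quantile normalization 3 were higher and 5 lower. The difference between genotypes passed the test for no gene (2.8% of all genes higher and 3.72% lower), with 1 of 27 at an unadjusted p below 0.05. Without the first control library with TGF-beta 5 passed, and without the second 2 did.

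DLL4 alone raised 4 and lowered 4 genes at any fold in control cells (20.6% and 24.4% of all genes), and raised 5 and lowered 4 in deleted cells (18.3% and 24.1%). Without the second control library, untreated or with DLL4, 5 genes passed in control cells. Sqle had 39.5 and 38.3 TPM with DLL4 and 59.6 and 61.6 TPM untreated in control cells (-0.62, SE 0.11). With DAPT added to DLL4 it was at 57.9 and 60.2 TPM, level with the untreated cells, and 0.59 above DLL4 alone (SE 0.11, adjusted p = 0.0012). These comparisons share the DLL4 libraries. DAPT added to DLL4 raised 5 genes and lowered 1 in control cells (17.3% and 12.0% of all genes), and raised 1 and lowered 2 in deleted cells (16.1% and 10.4%). Without any 1 of the 4 control libraries 3 genes passed. Mvd had 28.8 and 24.7 TPM with DLL4 and 19.5 and 18.4 TPM untreated in control cells (0.47, SE 0.09). TGF-beta added to DLL4 raised 8 genes and lowered 2 in control cells (15.0% and 30.9% of all genes). Untreated deleted cells differed from control for 4 genes (10.7% of all genes higher, 13.2% lower), among them Hmgcs1 with 50.5 and 54.0 TPM against 42.7 and 40.8 TPM (0.32, SE 0.06), and without any 1 of these 4 libraries 0 to 2 passed. With quantile normalization the split of 3 higher and 1 lower became 6 and 0.

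**Figure D2:**
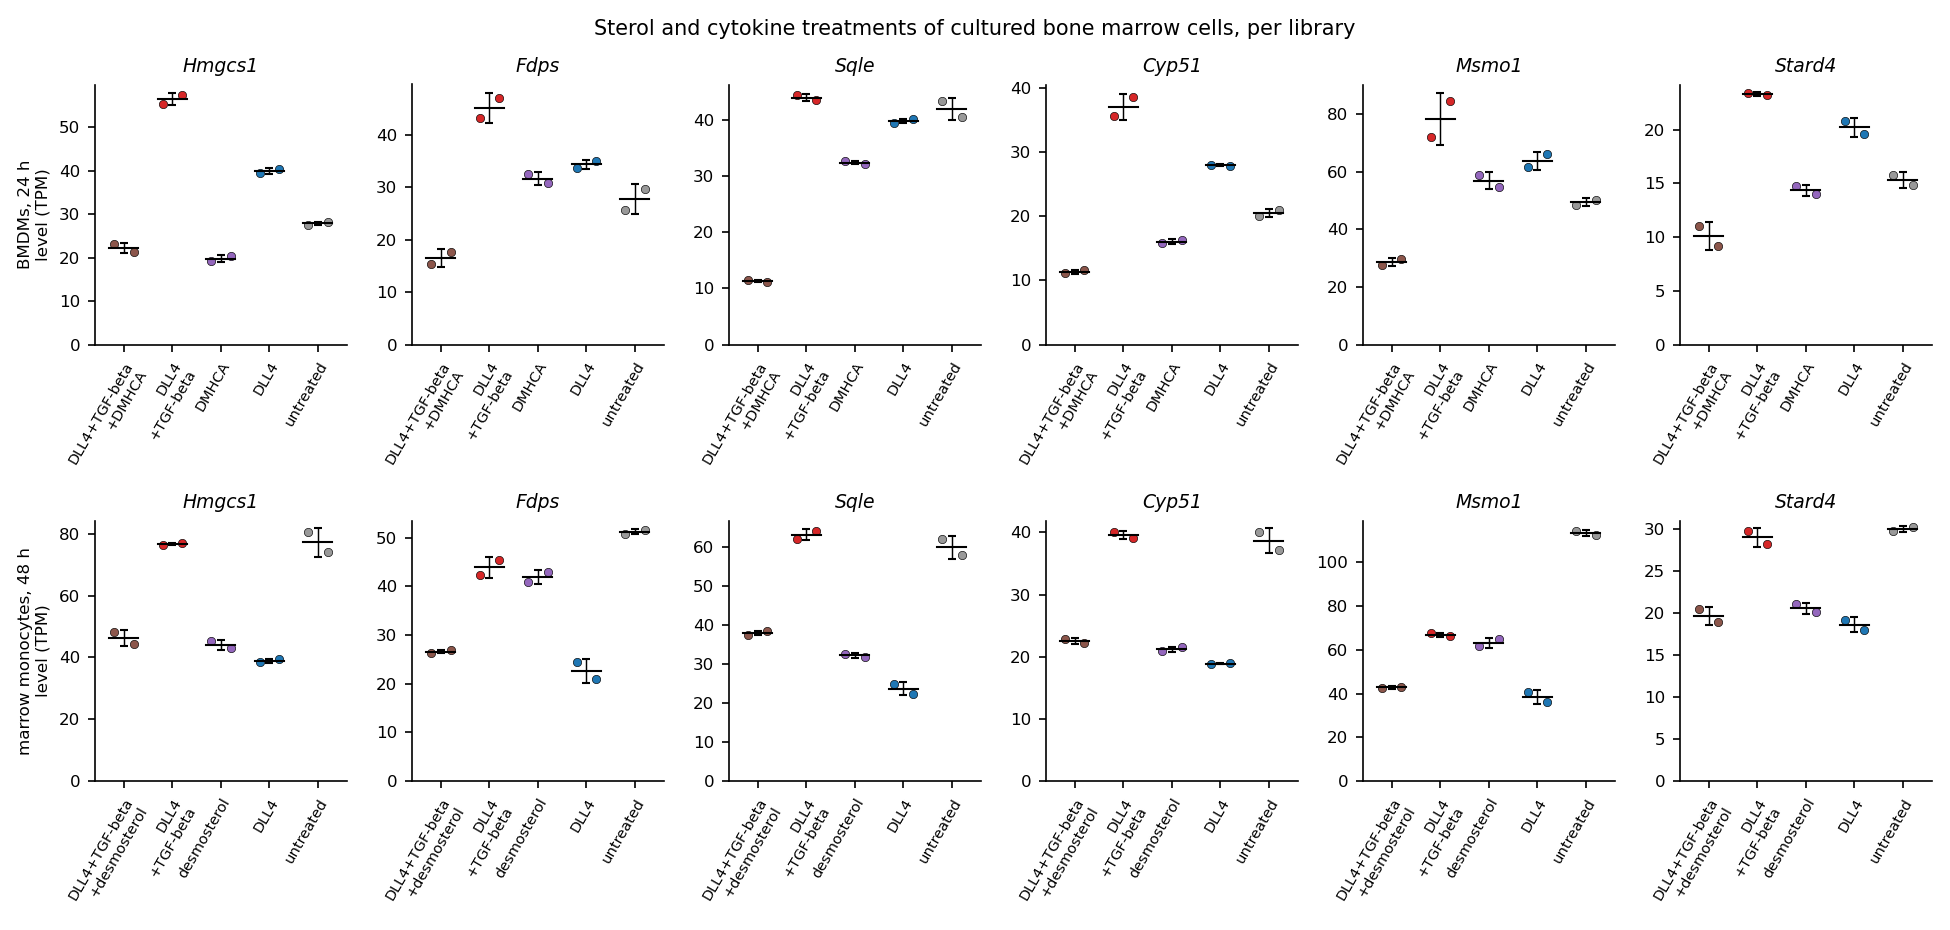
Level (TPM, vertical axis) of 6 genes in C57BL/6J BMDMs at 24 h (top row, sterol DMHCA) and in bone marrow monocytes at 48 h (bottom row, sterol desmosterol), by treatment. Points are libraries, bars group means and whiskers 1 SD (n = 2). Sqle in BMDMs is lowest with DLL4, TGF-beta and DMHCA together, at 11.5 and 11.2 TPM, and Sqle in marrow monocytes is lowest with DLL4 alone.

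In C57BL/6J BMDMs 4 of 7 mevalonate genes and 5 of 12 later-step genes were higher with DLL4 at 24 h, and 5 of 7 and 7 of 12 at 72 h. Over all roles, at 24 h 12 of 27 genes tested were higher at any fold and none lower (15.6% and 13.0% of 10908 genes), and at 72 h 13 were higher and none lower (10.3% and 5.13%), none by 2-fold (2.22% and 0.532% of all genes at 24 h, 1.31% and 0.422% at 72 h). Without any 1 of the 4 libraries at 72 h 7 or 8 genes passed. The 2 lists share Hmgcs1, Mvd, Fdps, Ggps1, Fdft1, Cyp51, Nsdhl, Sc5d and Insig1, 9 of the 12 and 9 of the 13. Hmgcs1 had 39.4 and 40.4 TPM with DLL4 and 27.6 and 28.2 TPM untreated at 24 h (log2 difference 0.50, SE 0.09), and 48.0 and 47.8 TPM with DLL4 and 33.4 and 33.2 TPM untreated at 72 h (0.51, SE 0.09). The largest rise at 24 h was in Fdft1 (0.74), where Ctsb rose by 0.46.

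TGF-beta added to DLL4 raised 11 genes and lowered 2 at 24 h (13.3% and 18.1% of all genes), and raised 10 and lowered 4 at 72 h (27.1% and 11.5%), none by 2-fold (2.31% and 1.49% of all genes at 24 h, 4.02% and 1.62% at 72 h). With quantile normalization, which moved the median of all genes by -0.12, the 72 h split was 3 higher and 5 lower. Without the first library of DLL4 at 72 h 7 genes passed, and without the first of DLL4 with TGF-beta 9 did. Pmvk had 27.7 and 25.9 TPM with DLL4 and TGF-beta and 16.2 and 15.7 TPM with DLL4 at 24 h (0.71, SE 0.09), and Lbr had 31.8 and 28.6 TPM with both agents and 57.1 and 53.5 TPM with DLL4 (-0.85, SE 0.09). These comparisons share the DLL4 libraries with those of DLL4 against untreated cells. Untreated cells at 72 h differed at least 2-fold from those at 24 h for Lbr (22.6 and 19.8 TPM against 64.3 and 64.2 TPM, -1.56, SE 0.09), Acat2 (-1.10) and, upward, Fdft1 (1.00, with Ctsb at 0.81), where 6.44% of all genes were higher and 7.33% lower. At any fold 5 were higher and 12 lower (19.2% and 45.0% of all genes), or 8 and 9 with quantile normalization, which moved the median of all genes by 0.18.

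DMHCA lowered most of the set when DLL4 and TGF-beta were present. At 24 h 6 of 27 genes were at least 2-fold lower and 19 lower at any fold (0.788% and 8.43% of all genes), and none was higher (0.44% and 9.21%). At 72 h 7 were at least 2-fold lower and 18 lower at any fold (4.57% and 23.2% of all genes), and 1 was higher, Fdft1 (10.3%), where Ctsb differed by -0.01. With quantile normalization the 72 h split was 3 higher and 15 lower. The lists lower at any fold share 17 genes, of the 19 at 24 h and of the 18 at 72 h. The median log2 difference at 24 h was -0.77 over the members and 0.02 over all genes.

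Sqle had 11.5 and 11.2 TPM with DMHCA, DLL4 and TGF-beta and 44.4 and 43.5 TPM with DLL4 and TGF-beta at 24 h (log2 difference -1.87, SE 0.09, adjusted p = 1.3e-08). Cyp51 had 11.1 and 11.6 TPM with DMHCA added and 35.6 and 38.5 TPM without (-1.62, SE 0.08). Msmo1 had 27.6 and 29.7 TPM with DMHCA added and 72.0 and 84.7 TPM without (-1.42, SE 0.13). The groups were far apart for each of these enzymes. Fdps had 15.3 and 17.7 TPM with DMHCA added and 43.2 and 47.1 TPM without (-1.40, SE 0.10). Hmgcs1 had 23.1 and 21.4 TPM with DMHCA added and 55.5 and 57.5 TPM without (-1.31, SE 0.09). Stard4 had 11.1 and 9.21 TPM with DMHCA added and 23.4 and 23.2 TPM without (-1.13, SE 0.14). Srebf2 fell less, to 37.7 and 37.0 TPM with DMHCA added, against 65.5 and 63.1 TPM without (-0.77, SE 0.06), as did Insig1 (-0.70, SE 0.06). Idi1, which was not tested, had 0.606 and 0.856 TPM with DMHCA added and 1.98 and 1.93 TPM without (19 and 20 reads with it and 65 and 56 without). Soat1, Npc2, Insig2, Ebp, Ggps1, Fdft1, Lbr and Scap did not pass the test at 24 h, with log2 differences between -0.21 and 0.07. Without the first library of DLL4, TGF-beta and DMHCA, 10 genes were at least 2-fold lower.

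At 72 h the 7 genes at least 2-fold lower were Sqle (9.26 and 12.0 TPM with DMHCA added and 31.4 and 29.0 TPM without, -1.43, SE 0.09), Cyp51 (-1.36), Pmvk (-1.22), Hmgcs1 (-1.14), Hsd17b7, a sterol ketoreductase (-1.12), Msmo1 (-1.12) and Stard4 (-1.08). Pmvk had 6.60 and 6.66 TPM with DMHCA added and 16.1 and 17.5 TPM without. Between the times the DMHCA effect differed for 5 genes. It was weaker at 72 h for Mvd (by 0.59, SE 0.13), Acat2 (0.57), Sqle (0.44) and Insig1 (0.30), where 3.64% of all genes went that way, and stronger for Lbr (-0.45, SE 0.13), where 13.0% did. Without any 1 of the 8 libraries between 1 and 9 genes passed, and with quantile normalization, which moved the median of all genes by 0.11, the split of 4 upward and 1 downward became 4 and 0. At 72 h with DMHCA added 4 of 8 cell cycle, 4 of 6 monocyte and 5 of 5 neutrophil genes were also at least 2-fold lower, and their part was not tested.

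DMHCA given alone at 24 h left every tested gene of the set within 2-fold of untreated cells. Its 2 libraries were the shallowest of this experiment, with 8303104 and 7830287 reads, against 13305932 and 18633542 in the untreated pair. The part of depth was not tested. Of the set none changed at least 2-fold (2.61% of all genes higher, 2.81% lower), 11 were lower at any fold and 1 higher (19.2% and 28.7% of all genes). The 2 largest falls were in Soat1, with 78.8 and 71.4 TPM with DMHCA and 138 and 131 TPM untreated (-0.84, SE 0.05), and in Fdft1, with 36.3 and 33.1 TPM with DMHCA and 56.6 and 59.4 TPM untreated (-0.73, SE 0.06), where Ctsb rose by 0.18. Sqle had 32.6 and 32.2 TPM with DMHCA and 43.4 and 40.6 TPM untreated (-0.36, SE 0.09), and Fdps had 32.6 and 30.8 TPM with DMHCA and 25.7 and 29.7 TPM untreated (adjusted p above 0.05). The effect of DMHCA on top of DLL4 and TGF-beta minus its effect alone passed the test for 19 genes, 17 downward and 2 upward (18.4% and 15.0% of all genes). The largest of these differences were in Msmo1 (-1.62, SE 0.19), Fdps (-1.59, SE 0.14), Sqle (-1.50, SE 0.12) and Cyp51 (-1.29, SE 0.11), and the upward ones were Soat1 (0.72, SE 0.07) and Fdft1 (0.73, SE 0.08). Monocyte genes (5 of 6 tested) and neutrophil genes (5 of 5) were at least 2-fold lower with DMHCA alone and none was with DMHCA on top of DLL4 and TGF-beta at 24 h, and the part of this shift was not tested.

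With DMHCA alone 5 of 9 LXR targets were at least 2-fold higher (2.61% of all genes were) and Apoc2 was lower. Abca1 averaged 116 TPM with DMHCA and 3.85 TPM untreated (4.59, SE 0.11), and Abcg1, its partner in export, 227 TPM with DMHCA and 11.1 TPM untreated (4.23, SE 0.05). On top of DLL4 and TGF-beta 5 of 9 were at least 2-fold higher (0.44% of all genes were) and none lower, with Abca1 at 336 TPM with DMHCA added and 31.8 TPM without (3.36, SE 0.11). Of 13 SREBP-driven genes outside cholesterol synthesis, 5 rose at least 2-fold with DMHCA alone (Scd1, Scd2, Fads2, Fasn, Srebf1) and 4 on top of DLL4 and TGF-beta (Scd1, Scd2, Srebf1, Fasn), and none fell, with medians of 0.38 and -0.12. Srebf1, which encodes SREBP1 and is an LXR target, averaged 149 TPM with DMHCA and 40.9 TPM untreated (1.85, SE 0.08). Of 9 genes of the SREBP2 machinery only Rnf145, a ubiquitin ligase that acts on Scap, rose (1.54 alone and 1.96 on top of DLL4 and TGF-beta).

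**Figure D3:**
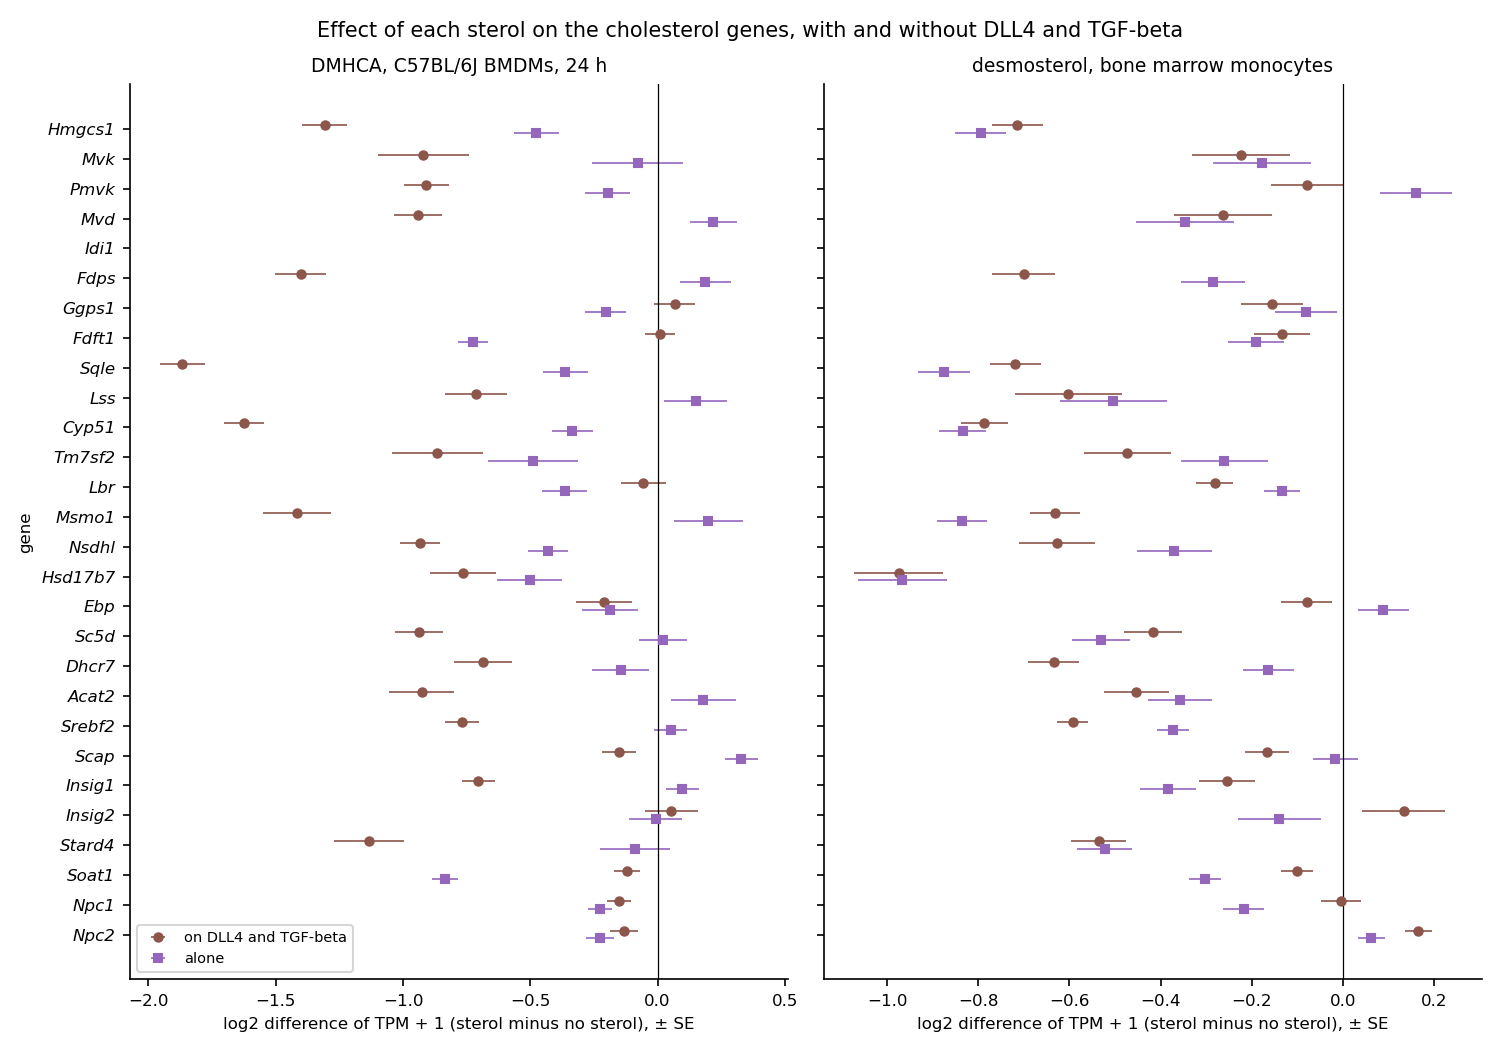
Log2 difference of TPM + 1 with its standard error (horizontal axis) for each gene tested (rows): DMHCA in C57BL/6J BMDMs at 24 h (left) and desmosterol in bone marrow monocytes at 48 h (right), added to DLL4 and TGF-beta (circles) or given alone (squares). With DMHCA circles lie left of squares for 17 genes whose difference passed the test, whereas with desmosterol the difference passed the test for Dhcr7 and Srebf2.

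In bone marrow monocytes most of the synthesis genes were lower with DLL4. Of 27 genes tested 8 were at least 2-fold lower and 2 higher (10.4% and 9.1% of 10234 genes), and at any fold 20 were lower and 6 higher (39.2% and 33.4%). The median log2 difference was -0.81 over the members and -0.05 over all genes. These cells and the BMDMs stand in separate tables, and the difference between them was not tested.

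Msmo1 had 40.7 and 36.1 TPM with DLL4 and 114 and 113 TPM untreated (log2 difference -1.54, SE 0.06, adjusted p = 6.8e-09). Sqle had 24.9 and 22.5 TPM with DLL4 and 62.0 and 57.9 TPM untreated (-1.31, SE 0.06). Fdps had 24.4 and 20.9 TPM with DLL4 and 50.8 and 51.7 TPM untreated (-1.15, SE 0.07). None of these groups overlapped. Insig1 had 26.5 and 25.4 TPM with DLL4 and 63.8 and 63.2 TPM untreated (-1.26, SE 0.06). Lss, lanosterol synthase, had 2.76 and 2.19 TPM with DLL4 and 10.7 and 11.3 TPM untreated (-1.79, SE 0.12). Acat2, the first thiolase of the pathway, had 4.77 and 4.94 TPM with DLL4 and 15.0 and 15.5 TPM untreated (-1.48, SE 0.07), and Hsd17b7 fell by 1.93 from a low level. Fdft1 had 31.3 and 29.7 TPM with DLL4 and 98.2 and 96.9 TPM untreated (-1.65, SE 0.06), and Ctsb fell by 1.57, with 1436 and 1501 TPM with DLL4 and 4412 and 4301 TPM untreated. Against the trend Pmvk had 41.4 and 40.7 TPM with DLL4 and 12.8 and 14.3 TPM untreated (1.53, SE 0.08), and Scap 32.9 and 35.1 TPM with DLL4 and 16.3 and 16.3 TPM untreated (1.02, SE 0.05).

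TGF-beta added to DLL4 raised 18 genes and lowered 4 at any fold (16.4% and 35.1% of all genes), 4 of them at least 2-fold higher and none lower (2.38% and 6.43%). Quantile normalization, which moved the median of all genes by 0.13, gave 20 higher and 2 lower. Pmvk had 114 and 113 TPM with DLL4 and TGF-beta and 41.4 and 40.7 TPM with DLL4 (1.45, SE 0.08), the highest level of this kinase in the 47 groups. Sqle had 62.2 and 64.1 TPM with both agents and 24.9 and 22.5 TPM with DLL4 (1.38, SE 0.06), and Cyp51 40.1 and 39.2 TPM with both agents and 18.9 and 18.9 TPM with DLL4 (1.03, SE 0.05). Hsd17b7 rose by 1.14. Lbr had 41.7 and 41.4 TPM with both agents and 72.6 and 73.7 TPM with DLL4 (-0.80, SE 0.04), Fdft1 fell by 0.25 while Ctsb fell by 0.64, and Lss stayed low at 1.64 and 1.99 TPM. This comparison shares the DLL4 libraries with the one before. The cell cycle gene sum was 58.9 and 62.6 TPM with both agents, 260 and 286 TPM with DLL4 and 668 and 688 TPM untreated, and its part in these results was not tested.

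Desmosterol lowered synthesis enzymes in both settings, none of them by 2-fold on the log2(TPM + 1) scale. Given alone it lowered 15 of 27 genes at any fold and raised none (8.82% and 4.46% of all genes), with none past 2-fold (0.117% and 0.127%). Without the first untreated or the second desmosterol library 9 passed at any fold. Sqle had 32.7 and 31.8 TPM with desmosterol and 62.0 and 57.9 TPM untreated (log2 difference -0.87, SE 0.06, adjusted p = 6.7e-05). Msmo1 had 61.6 and 64.8 TPM with desmosterol and 114 and 113 TPM untreated (-0.84, SE 0.06). Cyp51 had 20.9 and 21.5 TPM with desmosterol and 40.1 and 37.2 TPM untreated (-0.83, SE 0.05), and Hmgcs1 45.3 and 42.9 TPM with desmosterol and 80.6 and 74.0 TPM untreated (-0.79, SE 0.06). All 4 were clear of the untreated pair. Hsd17b7 showed the largest fall (-0.97, SE 0.10), and its means of 4.24 TPM with desmosterol and 9.24 TPM untreated differ by more than 2-fold in TPM itself. With a pseudocount of 0.25 its difference was -1.08.

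Added to DLL4 and TGF-beta, desmosterol lowered 16 genes at any fold and raised Npc2 by 0.17 (5.76% and 2.16% of all genes), with none past 2-fold (0.0782% and 0.127%). Sqle had 37.6 and 38.4 TPM with desmosterol added and 62.2 and 64.1 TPM without (-0.72, SE 0.06), and Cyp51 22.9 and 22.2 TPM with it added and 40.1 and 39.2 TPM without (-0.79, SE 0.05). Hsd17b7 averaged 2.00 TPM with desmosterol added and 4.90 TPM without (-0.98, and -1.19 with a pseudocount of 0.25), again more than 2-fold in TPM, as were the low means of Lss, 0.851 TPM with it added and 1.81 TPM without. Srebf2 had 68.9 and 67.5 TPM with desmosterol added and 102 and 105 TPM without (-0.59, SE 0.03). The lists lower with desmosterol alone and on top of DLL4 and TGF-beta, which share no library, have 13 genes in common, of the 15 and of the 16. The effect of desmosterol differed between the settings for 2 genes (2.24% of all genes downward, 1.5% upward), Dhcr7 (-0.47, SE 0.08) and Srebf2 (-0.22, SE 0.05), and without any 1 of the 8 libraries 0 or 1 passed. With quantile normalization 1 gene was upward and 1 downward. Of 8 LXR targets tested 2 were at least 2-fold higher in each setting. Abca1 averaged 126 TPM with desmosterol and 18.6 TPM untreated (2.69, SE 0.07), and Abcg1 170 TPM with desmosterol and 44.8 TPM untreated (1.90, SE 0.05). Scd1 (2.78) and Scd2 (1.78) rose with desmosterol alone among 13 SREBP-driven genes, and none fell.

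The 2 sterol ligands were given to different cells for different times, and their doses are not in the labels, so their effects stand side by side without a test between them. On top of DLL4 and TGF-beta, Sqle differed by -1.87 with DMHCA in BMDMs at 24 h and by -0.72 with desmosterol in marrow monocytes at 48 h, Cyp51 by -1.62 and -0.79, and Hmgcs1 by -1.31 and -0.71. Given alone, Sqle differed by -0.36 with DMHCA and by -0.87 with desmosterol, and Soat1 by -0.84 and -0.30. Of the 5 comparisons with a sterol ligand, 4 (DMHCA on top of DLL4 and TGF-beta at 24 and 72 h, desmosterol on top of both, and desmosterol alone) had 13 genes in common that were lower at any fold: Hmgcs1, Fdps, Sqle, Lss, Cyp51, Msmo1, Nsdhl, Hsd17b7, Sc5d, Acat2, Srebf2, Insig1 and Stard4. The share of all genes lower in all 4 is not given here. With DMHCA alone 5 of these 13 genes were lower (Hmgcs1, Sqle, Cyp51, Nsdhl and Hsd17b7) and the other 8 did not pass the test. Among those Msmo1 averaged 56.9 TPM with DMHCA and 49.4 TPM untreated (0.20, SE 0.13), Srebf2 69.6 TPM with DMHCA and 67.2 TPM untreated (0.05, SE 0.06) and Insig1 28.4 TPM with DMHCA and 26.5 TPM untreated (0.10, SE 0.06). Abca1 was at least 2-fold higher in all 5 comparisons.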

How the data were processed

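RNA levels were deposited by the authors as TPM in 8 tables, 1 value per gene and library. Per the file headers TPM were summed over exons with the HOMER command analyzeRepeats.pl on mm10, and no strand setting is given there; the submitters' processing notes also name STAR, without a version. Per the labels the libraries were poly(A) selected and strand specific. TPM within a library are multiples of what 1 read is worth for that gene, and at least 99.5% of low values came out as whole reads (within 0.1 read), which gave the depths of 7830287 to 27776760 reads per library. TPM were not treated as counts.

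The 28 genes and all lists were chosen with earlier results of these data known, so counts over them describe the set and support nothing independent. Each table was analysed alone. Genes with at least 4 TPM in at least 2 libraries were tested on log2(TPM + 1) with limma 3.58.1 (R 4.3.3) on group means, with an intensity trend and Benjamini-Hochberg adjustment over all genes of the table. Genes that met this minimum only through the group where they were higher had the direction of their difference set by it. There were 42 comparisons and 6 tests of differences between effects. Genes with values per library were those changed at least 2-fold and averaging 10 TPM or more in whichever group was higher, largest first, together with the leading genes where none changed 2-fold. From each related list, of 9 SREBP2 machinery, 13 SREBP-driven, 13 uptake and transport, 11 isoprenoid and 9 LXR target genes, the few called genes of largest difference were named.

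Marker lists held 7 Kupffer cell, 6 monocyte, 4 macrophage, 9 hepatocyte, 8 endothelial, 8 cell cycle and 5 neutrophil genes. In the toxin time course the macrophage list summed to 2455 to 6021 TPM in liver libraries, and the neutrophil list to 1.60 to 460 TPM in liver libraries and 14.4 to 45.6 TPM in blood monocytes. Promoters are from RefSeq and exon overlaps from GENCODE M21. Scripts were tested on simulated data. No 2 of 69 replicate pairs were identical. Alternatives were a pseudocount of 0.25, no filter, quantile normalization, limma-voom on recovered reads, the replicate number as a block, and each library left out. Some genes of the pathway are not reported here.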

Additional observations from a re-analysis of the deposited data

Results flagged for a closer look

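Samples that stand apart were looked for in the 2 groups of 4 libraries, 56 gene and group pairs in all, of which chance flags about 1 in 20. There were 4. In blood monocytes 1 library had 23.359 TPM of Hmgcs1 and the others 29.5 to 30.4 TPM. In antibody-treated liver macrophages 1 library had 5.376 TPM of Sqle, 1 had 31.184 TPM of Scap and 1 had 109.324 TPM of Npc1, against 3.95 to 4.04, 23.9 to 25.1 and 121 to 122 TPM in the others.

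Effects that differed between settings, each by limma's test of the difference, are given as differences of log2 differences. The effect of the Nr1h3 knockout label in timP Kupffer cells minus that in BMDMs was -0.47 for Cyp51, 0.53 for Lbr, -0.59 for Sc5d and -0.66 for Soat1, and Nr1h3 RNA was lower in BMDMs alone. The effect of LY411575 minus that of the antibodies was 0.67 for Fdft1, 0.89 for Sqle, 1.07 for Sc5d and 0.44 for Soat1, while the Ctsb effects differed by -0.49. Desmosterol on top of DLL4 and TGF-beta minus desmosterol alone was -0.47 for Dhcr7 and -0.22 for Srebf2.

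DMHCA gave the longest list. Its effect on top of DLL4 and TGF-beta minus its effect alone at 24 h was -0.83 for Hmgcs1, -0.84 for Mvk, -0.71 for Pmvk, -1.16 for Mvd, -1.59 for Fdps and -1.11 for Acat2 among the mevalonate steps. Among the later steps it was -1.50 for Sqle, -0.86 for Lss, -1.29 for Cyp51, -1.62 for Msmo1, -0.50 for Nsdhl, -0.96 for Sc5d, -0.54 for Dhcr7 and 0.73 for Fdft1, where Ctsb differed by -0.22. For control and transport it was -0.82 for Srebf2, -0.48 for Scap, -0.80 for Insig1, -1.04 for Stard4 and 0.72 for Soat1. The effect at 72 h minus that at 24 h was 0.59 for Mvd, 0.44 for Sqle, -0.45 for Lbr, 0.57 for Acat2 and 0.30 for Insig1.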

How the results depend on the processing

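No single-gene result past the adjusted p threshold changed sign under any alternative run, and other results were not checked for sign. Of 491 such results, 51 missed the threshold with quantile normalization, 37 without a filter, 24 with voom and 2 with a pseudocount of 0.25. Of 90 counts of genes, 83 stayed within 1.5 times with voom, 88 without a filter, 87 with a pseudocount of 0.25 and 83 with quantile normalization. With a pseudocount of 0.25, 12 h against monocytes had 8 genes past 2-fold (5 as reported), and desmosterol alone or added 1 each (0). With quantile normalization the counts were 3 for 12 h against monocytes (5), 7 for the Nr1h3 difference (4), 0 for TGF-beta on DLL4 in control BMDMs (1), 1 for the TGF-beta difference between Smad4 genotypes (0), 8 for TGF-beta on DLL4 at 72 h at any fold (14), 2 for LY411575 minus antibodies (4) and 1 for desmosterol alone (0). With voom they were 3 for Nr1h3 KO BMDMs at any fold (1), 1 for the TGF-beta genotype difference and 1 for TGF-beta in Smad4-deleted cells at any fold (0 each), 7 for LY411575 minus antibodies (4), 1 and 2 for desmosterol alone and added (0 each), and 5 for the desmosterol difference (2). Without a filter they were 2 for untreated Smad4-deleted against control cells at any fold (4) and 1 for LY411575 minus antibodies (4). The cause of these shifts was not tested.

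Leaving out each library in turn gave these ranges, with a lone library assumed to vary like the other groups. At 2-fold they were 2 to 11 for 12 h against monocytes, 1 to 9 for 24 against 12 h, 0 to 1 for each of 336 h against Kupffer cells, STAB2-low cells, LY411575, desmosterol alone and desmosterol added, and 6 to 10 for DMHCA added at 24 h. At any fold they were 8 to 15 for 24 against 12 h, 2 to 3 for 336 h against Kupffer cells, 3 to 4 and 3 to 6 for timP and timN cells, 0 to 0 for Nr1h3 KO BMDMs, 1 to 3 for STAB2-low cells, 4 to 13 for TGF-beta, 5 to 7 for DLL4 and 3 to 3 for DAPT in control BMDMs, 0 to 0 for TGF-beta on DLL4 in Smad4-deleted cells, 0 to 2 for untreated Smad4-deleted cells, 7 to 8 for DLL4 and 7 to 12 for TGF-beta at 72 h, 5 to 11 for LY411575, 2 to 5 for the antibodies and 9 to 14 for desmosterol alone. Differences between effects ranged 2 to 5 for Nr1h3, 0 to 5 for TGF-beta, 1 to 9 for DMHCA 72 against 24 h, 1 to 6 for LY411575 minus antibodies and 0 to 1 for desmosterol.

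In 5 tables the median correlations between deviations of libraries with the same replicate number were -0.0274 to 0.0178. Single pairs ranged from -0.261 to 0.339, the highest in the table of the Nr1h3 groups. Whether same-numbered libraries share an animal or culture is not stated, and the main comparisons were run unpaired. In the STAB2-sorted cells, which share title codes, all 6 correlations were positive (0.0574 to 0.137). With the replicate block 65 of 66 counts stayed within 1.5 times, and the desmosterol difference had 1 gene (2). Of 2511 single-gene results with a library left out, 407 missed the threshold and 0 changed sign. Idi1, listed at 2.55 TPM or less, was left out by the expression minimum, and members near 4 TPM rest on few reads.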
